A study of Mus musculus with 12 samples.

Results

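Late day was compared with the earlier day in the liver of Cry1/2 DKO mice. Both livers sampled at zeitgeber time (ZT) 10 were set against the 4 livers of ZT02 and ZT06, for all genes of a raw exon count table. Of 17142 genes tested, 5030 had both ZT10 libraries on one side of all 4 earlier-day libraries, and 500 of these passed a test across the whole table, 274 of them higher and 226 lower at ZT10. Every group consisted of male Cry1/2 DKO mice, which lack the cryptochrome genes Cry1 and Cry2, on the C57BL/6j background, 12 to 16 weeks old, fed at night and raised with a conventional gut microbiome. ZT10, ZT02 and ZT06 had 2 libraries each. A further 6 libraries, 2 each of ZT14, ZT18 and ZT22, entered the fit and are given for context. RNA from whole liver was depleted of ribosomal RNA and sequenced as stranded paired-end libraries. All groups carried the same mutation. Wild-type livers of this design are held in a different series and were not used here. Nothing in the labels says whether both replicates of a time are different mice, so a p-value here reflects only how far these libraries spread, part of which may be technical.

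By convention, zeitgeber time counts hours from lights on, and mice rest and eat little while it is light. The labels give neither the light schedule nor the feeding hours, so how long the mice had been without food at each time is not known. In the liver, rhythms come from the cell's own circadian clock and from signals that follow feeding, fasting, hormones and body temperature. The cryptochromes are the strongest repressors of the clock's activator CLOCK:BMAL1, and mice without both have no free-running rhythm of activity. Fasting is known to lower insulin and to favour fatty acid oxidation, ketone body synthesis and gluconeogenesis over lipid synthesis. Feeding is also known to raise the liver's investment in ribosomes.

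The libraries held 34715506 to 46074052 counts in 22618 genes, with 40343264 and 41205270 at ZT10, so that 3 counts, the limit that a count of 0 allows, correspond to 0.0651 to 0.0864 CPM, the level scaled to library size. Such limits cover counting error only. Cry1 had 5.71 to 13.6 CPM and Cry2 12.4 to 22.8 CPM over the 12 libraries. Exon counts over a whole gene do not check a deletion of part of it. The hepatocyte markers summed to 120400 and 111000 CPM at ZT10, against 114300 to 145900 CPM in the earlier day. No marker of the 10 cell types examined passed edgeR's test, 7 had an unadjusted p under 0.05, and DESeq2 called 1 endothelial marker higher. Erythroid markers summed to 121.9 and 120.1 CPM at ZT10, against 127.1 to 381.6 CPM earlier, with ZT02 replicate 1 the highest. Lymphocyte markers summed to 10.5 and 17.7 CPM at ZT10, against 16.6 to 20.5 CPM earlier. Kupffer cell markers summed to 523 and 504.9 CPM at ZT10, against 446.8 to 689.5 CPM earlier. In the other lists the ZT10 and earlier ranges overlapped. They were 665.3 to 748.6 CPM at ZT10, against 663.4 to 844.8 CPM earlier, for sinusoidal endothelial cells, and 432 to 527.4 CPM at ZT10, against 475.1 to 579.1 CPM earlier, for stellate cells. Cholangiocyte markers gave 44.1 to 62.8 CPM at ZT10, against 51.8 to 76.6 CPM earlier, and neutrophil markers 3.13 to 3.81 CPM at ZT10, against 3.25 to 4.61 CPM earlier. For acinar markers the sums were 6.35 to 15.6 CPM at ZT10, against 9.14 to 17.4 CPM earlier, and for adipocyte markers 6.64 to 8.47 CPM at ZT10, against 6.69 to 9.26 CPM earlier. In 3 of the marker lists some genes were at 0 in all 6 libraries, 1 of 10 neutrophil markers, 2 of 10 acinar markers and 1 of 6 adipocyte markers. In whole liver, fewer cells of a type and less RNA per cell cannot be told apart.

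The earlier-day libraries did not group by time. Across 9876 genes, scaled per gene over the 12 libraries, the correlation was 0.485 between replicate 1 of ZT02 and replicate 1 of ZT06, and 0.494 between replicate 2 of ZT02 and replicate 2 of ZT06. It was 0.152 between both ZT02 libraries, 0.0684 between both ZT06 libraries and 0.34 between both ZT10 libraries. These values describe points that share a library, its depth and a common scaling, and carry no test. Lipid synthesis genes were high in both replicate 1 libraries of the earlier day and low in both replicate 2 libraries. Counts of calls are therefore given with and without these libraries. The same is done for the medians of several lists that turned on them, but not for all lists.

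The test was edgeR's quasi-likelihood fit over all 12 libraries, and a call means a Benjamini-Hochberg adjusted p under 0.05 over all 17142 genes. The 274 rises were 1.6% of the genes tested and the 226 falls 1.32%. ZT10 lay above all 4 earlier-day libraries in 2709 genes, 15.8% of those tested, and below all 4 in 2321 genes, 13.5%. An unadjusted p under 0.05 was reached by 3617 genes, 21.1%, and DESeq2 called 3.32% of the genes higher and 3.96% lower. Counts by these measures in the gene lists below are read against these shares. Changes were moderate. The median fold was 1.59 among the rises and 1.61 among the falls, and 44 rises and 56 falls exceeded 2-fold. Protein-coding genes made up 258 of the rises and 208 of the falls.

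**Figure D1:**
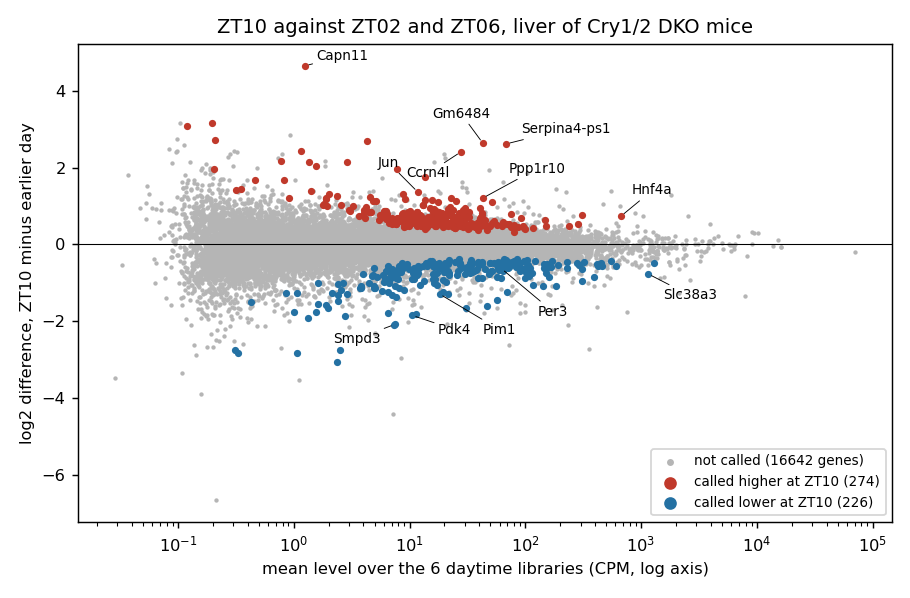
Log2 difference of ZT10 minus the earlier day (ZT02 and ZT06) for 17142 genes against their mean level over the 6 daytime libraries (CPM, log axis). Red points are the 274 genes called higher at ZT10, blue points the 226 called lower and grey points the genes not called. The labelled Capn11 stands at a log2 difference of 4.65, Hnf4a at 0.74 and Smpd3 at -2.09.

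How many genes were called turned on single libraries. Without ZT02 replicate 1 the count was 61, without ZT10 replicate 1 it was 63, without ZT06 replicate 1 it was 180, without either ZT18 library it was 188, and without ZT22 replicate 1 or 2 it was 264 or 266. Without both replicate 1 libraries of the earlier day it was 28 (23 higher, 5 lower), and without both replicate 2 libraries it was 698 (255 higher, 443 lower). Fitted on the 6 daytime libraries alone, 5 genes were called, namely Jun, Pim1, Ppp1r10, Capn11 and Serpina4-ps1. With ZT02 and ZT06 taken as 1 group of 4 in that fit, 37 were called. Without a composition factor, scaling by library totals only, 766 genes were called and 568 (74.2%) of them were higher, against 54.8% as reported. DESeq2 called 1247 genes, 486 of the 500 among them. Of the 500 genes, 26 kept their call in each of the 12 fits that left out 1 library, 20 of them higher and 6 lower, and 113 kept it in at least 10. The other calls, among them many named here, were each lost in 3 or more of these fits. Only Jun and Pim1 kept it in all 24 alternatives tried.

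**Figure D2:**
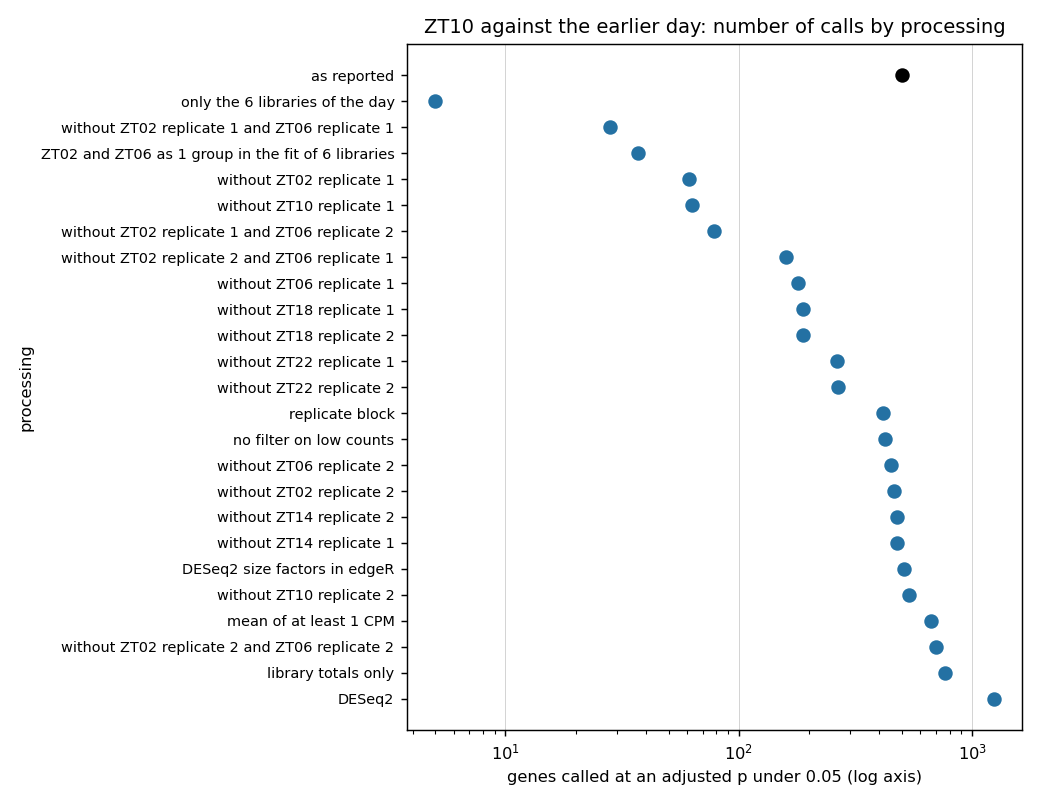
Number of genes called at an adjusted p under 0.05 (log axis) for ZT10 against the earlier day as reported (black, 500) and under each of 24 alternatives (blue). The counts run from 5 with the 6 daytime libraries alone to 1247 with DESeq2.

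Among the 15 largest rises of at least 5 CPM were transcription factors and regulators of RNA polymerase II. Jun, a subunit of the immediate-early factor AP-1, lies on chromosome 4, 95049034 to 95052222 on the minus strand (mm10). It had 21.7 and 18 CPM at ZT10, against 7.79 and 7.23 CPM at ZT02 and 8.44 and 7.34 CPM at ZT06. Both ZT10 libraries were thus more than 2-fold above each earlier library. The mean was 19.9 ± 2.6 CPM at ZT10 and 7.7 ± 0.55 CPM in the earlier day (SD, n = 2 and 4), with a log2 difference of 1.37 ± 0.15 SE (adjusted p = 0.00885). Later in the cycle Jun had 24.1 and 21.2 CPM at ZT14, 14.8 and 9.93 CPM at ZT18 and 10 and 8.6 CPM at ZT22, so its high level extended into the early night and was lower by ZT22. Ppp1r10, a nuclear targeting subunit of protein phosphatase 1 that acts in transcription termination (chromosome 17, 35916434 to 35932283 on the plus strand), had 67 and 70.4 CPM at ZT10, against 27.1 and 22.4 CPM at ZT02 and 33.9 and 37.6 CPM at ZT06. Its ZT10 libraries were the 2 highest of the 12, and the log2 difference was 1.21 ± 0.13 SE (adjusted p = 0.00885). Pprc1, a coactivator of the PGC-1 family, had 11.4 and 17.9 CPM at ZT10, against 3.97 and 6.15 CPM at ZT02 and 5.92 and 7.7 CPM at ZT06 (log2 difference 1.32 ± 0.23 SE, adjusted p = 0.0203). Pogk, a KRAB domain protein derived from a transposase, had 22.9 and 20.3 CPM at ZT10, against 7.95 to 13.3 CPM in the other 10 libraries (log2 difference 1.16 ± 0.17 SE, adjusted p = 0.016). Without ZT10 replicate 1 the Pogk call was lost, and without ZT02 replicate 1, ZT06 replicate 1 or ZT10 replicate 2 that of Pprc1.

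Among hepatocyte identity factors Hnf4a and Foxa3 rose at ZT10, with replicates close together. Hnf4a, the nuclear receptor that maintains hepatocyte gene expression (chromosome 2, 163506808 to 163572910 on the plus strand), had 933 and 907 CPM at ZT10, against 534 and 567 CPM at ZT02 and 565 and 540.1 CPM at ZT06. No ZT10 value came near an earlier one, and the means were 920.0 ± 18.2 CPM at ZT10 and 551 ± 17 CPM in the earlier day (SD, n = 2 and 4). The log2 difference was 0.74 ± 0.10 SE (adjusted p = 0.0131). From ZT14 on, Hnf4a had 778 and 678 CPM at ZT14, 619.6 and 607 CPM at ZT18 and 516 and 546 CPM at ZT22, all below both ZT10 libraries. Foxa3, a forkhead factor that opens liver enhancers (chromosome 7, 19013284 to 19023538 on the minus strand), had 78.3 and 79.9 CPM at ZT10, against 34.9 and 41.4 CPM at ZT02 and 30.3 and 42.1 CPM at ZT06 (log2 difference 1.09 ± 0.15 SE, adjusted p = 0.0145). Both genes kept their call in each of the 12 leave-one-out fits. Of the 19 nuclear receptors outside the clock, Hnf4a was the 1 that rose and the oestrogen receptor Esr1 the 1 that fell, and the median of the list was -0.00128. Esr1 had 33.8 and 30.9 CPM at ZT10, against 69.2 and 62.8 CPM at ZT02 and 49.5 and 43.2 CPM at ZT06 (log2 difference -0.77 ± 0.15 SE, adjusted p = 0.0261). At ZT06 Esr1 already stood between its ZT02 and ZT10 levels.

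Several of the largest rises were metabolic or signalling genes in which the ZT10 libraries differed from each other. Pfkfb3, a bifunctional enzyme that raises the glycolytic activator fructose bisphosphate, had 12 and 39.1 CPM at ZT10, against 8.96 and 7.15 CPM at ZT02 and 7.24 and 6.97 CPM at ZT06 (log2 difference 1.75 ± 0.37 SE, adjusted p = 0.036). Replicate 2 accounted for most of that, and without it the call was lost. Ccrn4l, which encodes nocturnin, had 97.3 and 21.7 CPM at ZT10, against 7.97 and 8.97 CPM at ZT02 and 21.3 and 8.55 CPM at ZT06 (log2 difference 2.4 ± 0.53 SE, adjusted p = 0.0393). Here replicate 1 was the high library and replicate 2 lay at the level of ZT06 replicate 1. Gm6484, the gene of the feeding-responsive hepatokine ANGPTL8, is named through its gene list and had 154 and 40.5 CPM at ZT10, against 22.8 and 9.82 CPM at ZT02 and 18.2 and 11.4 CPM at ZT06 (log2 difference 2.64 ± 0.59 SE, adjusted p = 0.0406). Calls of Pfkfb3 and Gm6484 held in 3 of the 12 leave-one-out fits, and that of Ccrn4l in 1. Dact1, an inhibitor of Wnt signalling, was more even, with 11.6 and 19.2 CPM at ZT10, against 2.71 and 4.3 CPM at ZT02 and 5.09 and 3.82 CPM at ZT06 (log2 difference 1.96 ± 0.28 SE, adjusted p = 0.016). Eif4ebp3, a repressor of cap-dependent translation, had 30.3 and 42.7 CPM at ZT10, against 12.2 to 20.02 CPM in the earlier-day libraries (log2 difference 1.20 ± 0.27 SE, adjusted p = 0.0439).

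Ttpal, a relative of the vitamin E transfer protein (chromosome 2, 163602314 to 163619013 on the plus strand), had 43.7 and 35.4 CPM at ZT10, against 18.5 and 18.4 CPM at ZT02 and 19.7 and 15.4 CPM at ZT06 (log2 difference 1.13 ± 0.12 SE, adjusted p = 0.00885). Slc5a3, the sodium and inositol cotransporter, had 27.6 and 27.1 CPM at ZT10, against 13 and 13.2 CPM at ZT02 and 14.1 and 10.7 CPM at ZT06 (log2 difference 1.10 ± 0.13 SE, adjusted p = 0.00953). Slc5a3 overlaps Mrps6 on the same strand, and Mrps6 had 31.7 and 31.5 CPM at ZT10, against 17.2 and 16.7 CPM at ZT02 and 18.1 and 14.5 CPM at ZT06, so the reads of this locus cannot be assigned to one gene. The remaining large rises were Serpina4-ps1, a serpin pseudogene with 114 and 192 CPM at ZT10, against 41 and 31.3 CPM at ZT02 and 16.1 and 18.3 CPM at ZT06, and 3 genes of ribosome and tRNA maturation described with the nucleolar genes. At 2.62, Serpina4-ps1 had the largest log2 difference of the 15, which leave out Gm6484. From ZT14 on, Serpina4-ps1 had 72.3 and 428 CPM at ZT14, 64.1 and 61.2 CPM at ZT18 and 156 and 156 CPM at ZT22. Its highest library was thus ZT14 replicate 2. In 7 of the 15 rises the ZT10 libraries differed by more than 1.5 times. Replicate 2 was the higher ZT10 library in 10 of the rises and replicate 1 in 5.

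**Figure D3:**
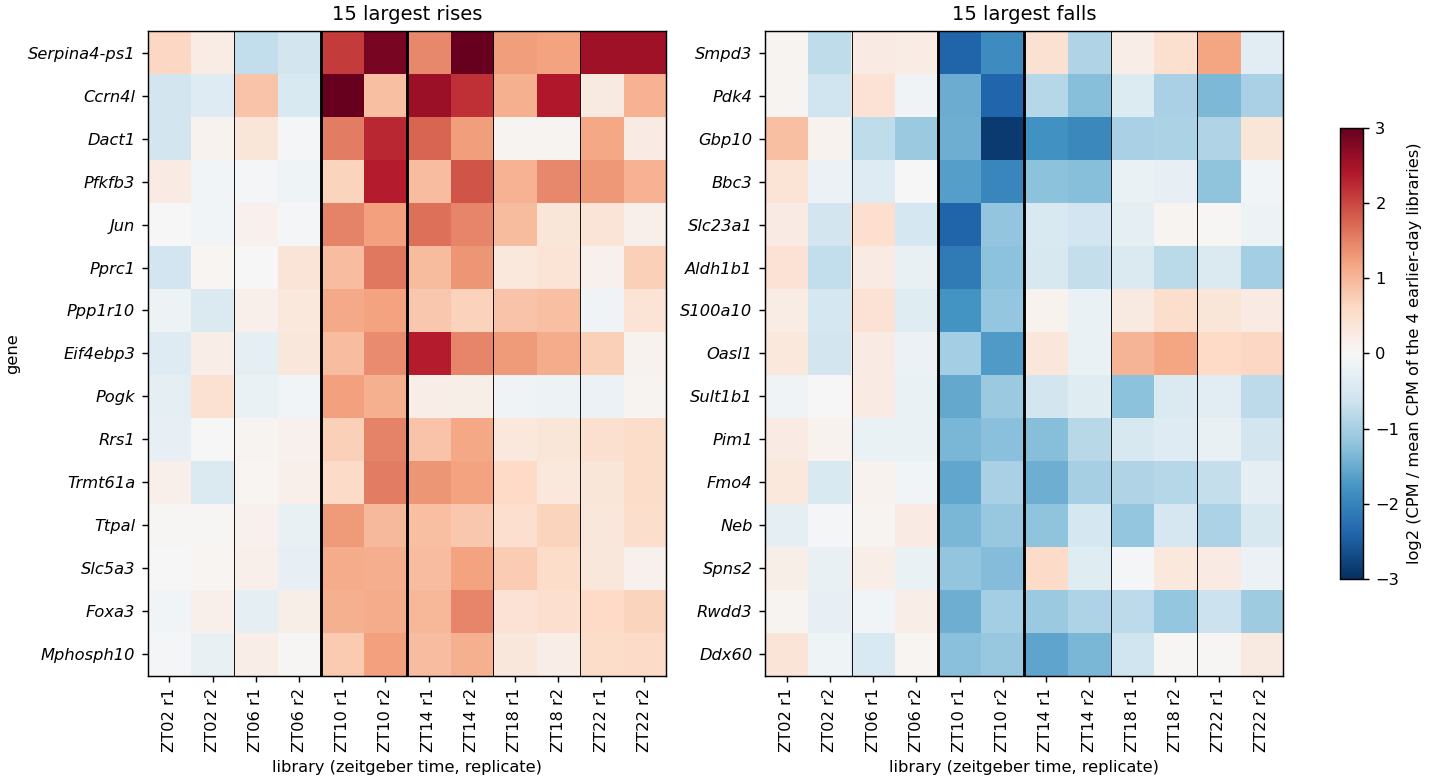
Levels of the 15 largest rises and the 15 largest falls in each of the 12 libraries, as log2 of CPM over the mean CPM of the 4 earlier-day libraries (colour, from -3 to 3). Columns run in time order and the ZT10 columns stand between thick lines; 3 of the rises were above all 10 other libraries at ZT10, and 8 of the falls were below all 10.

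Promoters of a few of these genes are shown because their differences in level can be read beside short sequences that circadian, growth and stress factors are known to bind. The windows are the 250 bases before the start of transcription from RefSeq (GRCm38.p6), and both strands were searched for 6 motifs. Only the motif picked for each gene is in capitals, and windows of a gene without that motif are not shown. Capitals mark a D-box (TTATGTAA, bound by PAR bZIP factors such as DBP) in Per3, an E-box (CACGTG, bound by CLOCK:BMAL1 and by MYC) in Nop2 and Pfkfb3, the core of the cyclic AMP response element (TGACG, bound by CREB and ATF factors) in Ppan, and a forkhead site (TGTTTAC, bound by FOXO and FOXA factors) in Bbc3 and Pim1.
Per3, chr4:151044666-151044915, minus strand: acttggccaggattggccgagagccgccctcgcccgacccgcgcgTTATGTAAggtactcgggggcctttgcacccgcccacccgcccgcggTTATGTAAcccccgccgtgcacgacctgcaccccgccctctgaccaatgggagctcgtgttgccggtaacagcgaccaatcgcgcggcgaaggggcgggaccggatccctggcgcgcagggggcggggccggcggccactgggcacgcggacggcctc
Nop2, chr6:125131633-125131882, plus strand: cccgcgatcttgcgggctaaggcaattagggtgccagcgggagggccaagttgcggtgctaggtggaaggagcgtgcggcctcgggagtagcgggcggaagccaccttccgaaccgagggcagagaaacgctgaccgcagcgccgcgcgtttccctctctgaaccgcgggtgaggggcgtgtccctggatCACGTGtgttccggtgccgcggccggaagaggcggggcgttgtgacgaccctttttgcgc
Pfkfb3, chr2:11502091-11502340, minus strand: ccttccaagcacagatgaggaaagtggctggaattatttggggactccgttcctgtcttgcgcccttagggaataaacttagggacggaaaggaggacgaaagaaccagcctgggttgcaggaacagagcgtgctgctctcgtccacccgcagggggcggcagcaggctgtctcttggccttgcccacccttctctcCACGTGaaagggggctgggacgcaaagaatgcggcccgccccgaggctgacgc
Ppan, chr9:20887925-20888174, plus strand: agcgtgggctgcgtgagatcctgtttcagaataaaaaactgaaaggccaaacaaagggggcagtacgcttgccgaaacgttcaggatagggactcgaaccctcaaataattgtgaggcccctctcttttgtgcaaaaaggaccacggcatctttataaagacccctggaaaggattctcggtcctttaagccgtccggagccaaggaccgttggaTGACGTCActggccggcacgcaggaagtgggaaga
Bbc3, chr7:16310011-16310260, plus strand: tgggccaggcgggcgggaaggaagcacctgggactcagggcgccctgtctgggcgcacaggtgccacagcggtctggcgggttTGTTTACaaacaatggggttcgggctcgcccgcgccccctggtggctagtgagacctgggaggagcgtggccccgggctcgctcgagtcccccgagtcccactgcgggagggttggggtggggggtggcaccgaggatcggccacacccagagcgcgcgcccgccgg
Pim1, chr17:29492835-29493084, plus strand: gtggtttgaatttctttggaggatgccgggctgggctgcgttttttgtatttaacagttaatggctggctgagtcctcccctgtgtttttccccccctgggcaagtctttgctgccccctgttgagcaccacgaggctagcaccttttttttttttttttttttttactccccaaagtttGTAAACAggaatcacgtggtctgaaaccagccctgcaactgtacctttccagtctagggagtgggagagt
Both D-boxes of Per3 begin 205 and 158 bases before the start. The E-box begins 60 bases before the start in Nop2 and 53 in Pfkfb3. In Ppan 2 such cores overlap on opposite strands, 35 and 32 bases before the start. The forkhead site begins 167 bases before the start in Bbc3, and 70 in Pim1, where it reads on the opposite strand in the second of the gene's 2 windows. Other matches in these windows are left in small letters. Among them are an E-box in Pim1 and the cyclic AMP response element core in Nop2 and Pfkfb3.

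Over windows that also took in 50 bases after the start, 222 of the rises, 163 of the falls and 11335 of all genes tested had a RefSeq promoter. An E-box was found in 15.8% of the rises, 11.0% of the falls and 11.3% of all genes. The cyclic AMP response element core stood in 40.1% of the rises, 20.9% of the falls and 33.6% of all genes. The forkhead site was found in 1.35% of the rises, 7.98% of the falls and 3.33% of all. A D-box was found in 1 rise (0.45%), Gde1, and in 5 falls (3.07%), Per3, Apol7a, Map2k6, Wnt5b and Prnp, against 0.812% of all genes. Heat shock elements (GAANNTTC) were found in 8.56% of the rises, 12.9% of the falls and 7.14% of all, and the glucocorticoid receptor hexamer (TGTTCT) in 12.2% of the rises, 17.8% of the falls and 15.5% of all. A match describes letters in a window, not a bound site, and these shares carry no test.

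Some genes of the nucleolus, where ribosomes are assembled, rose at ZT10. Of 25 tested genes for ribosome biogenesis and RNA polymerase I, 5 rose and none fell, and 15 lay above all 4 earlier libraries while none lay below. DESeq2 called 11 higher, the fit of the 6 daytime libraries none, and edgeR 2 when ZT02 replicate 1 or 2, ZT06 replicate 1, ZT10 replicate 2 or any ZT18 or ZT22 library was left out. The median log2 difference was 0.334, against 0.00412 over all genes, and 24 of the 25 differences were positive. Nop56, a core protein of the box C/D small nucleolar ribonucleoproteins, had 26.1 and 39.6 CPM at ZT10, against 16.5 and 14.8 CPM at ZT02 and 17.1 and 19.1 CPM at ZT06 (log2 difference 0.96 ± 0.15 SE, adjusted p = 0.016). Nolc1, a nucleolar phosphoprotein, had 35.7 and 47.2 CPM at ZT10, against 17.7 to 26.3 CPM in the earlier-day libraries (log2 difference 0.89 ± 0.14 SE, adjusted p = 0.0162). Both kept their call without each library in turn. Rrp12, which acts in export of ribosomal subunits, had 13.4 and 19.3 CPM at ZT10, against 8.24 to 11.1 CPM in the earlier-day libraries (adjusted p = 0.0393). Nop2 and Nip7 were chosen after their values were seen. The rRNA methyltransferase gene Nop2, whose E-box is shown above, had 22.8 and 37.5 CPM at ZT10, against 18.5 and 16 CPM at ZT02 and 17.8 and 19.2 CPM at ZT06 (adjusted p = 0.03996). For Nip7, a factor of large-subunit maturation, the values were 12.3 and 16.8 CPM at ZT10, against 8.81 to 10.3 CPM in the earlier-day libraries (adjusted p = 0.0411). The calls of Rrp12, Nop2 and Nip7 were lost in most fits that left out 1 library, since they held in 2, 1 and 2 of the 12.

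Rrs1, a regulator of ribosome assembly, was among the 15 largest rises and had 18.1 and 30.9 CPM at ZT10, against 9.39 and 11 CPM at ZT02 and 11.7 and 12.2 CPM at ZT06 (log2 difference 1.15 ± 0.17 SE, adjusted p = 0.016). Mphosph10, a component of the U3 small nucleolar ribonucleoprotein, had 16.5 and 22.5 CPM at ZT10, against 9.42 and 8.26 CPM at ZT02 and 11.1 and 9.92 CPM at ZT06 (log2 difference 1.02 ± 0.13 SE, adjusted p = 0.0123). In both genes ZT10 replicate 2 was the higher library. Further nucleolar genes were chosen after their values were seen. Usp36, a nucleolar deubiquitinase, had 25.2 and 31.4 CPM at ZT10, against 15.1 to 17.7 CPM in the earlier-day libraries (log2 difference 0.80 ± 0.10 SE, adjusted p = 0.0123). Rrp8, which silences ribosomal DNA, had 15.5 and 17.9 CPM at ZT10, against 9.34 to 10.5 CPM in the earlier-day libraries (log2 difference 0.75 ± 0.10 SE, adjusted p = 0.0123). Ppan, whose promoter is shown above, had 14 and 25.5 CPM at ZT10, against 9.03 and 9.2 CPM at ZT02 and 8.89 and 12.1 CPM at ZT06 (log2 difference 1.01 ± 0.23 SE, adjusted p = 0.0445). Nol8, Mak16, Gnl3, Gtpbp4, Urb1, Ddx21, Bysl and Utp18 also rose, with log2 differences between 0.59 in Utp18 and 0.83 in Nol8. Trmt61a, the catalytic subunit of a tRNA methyltransferase, had 5.44 and 10.7 CPM at ZT10, against 2.7 to 4.1 CPM in the earlier-day libraries (adjusted p = 0.0367), a call that held in 1 of the 12 leave-one-out fits.

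Families were also picked by symbol, after the calls were seen. Of 31 Nop, Nol, Rrp and Utp genes, 7 rose, none fell and 20 lay above all 4 earlier libraries, with a median log2 difference of 0.225. Among 74 cytosolic ribosomal protein genes 1 rose (Rpl35a), 30 lay above all 4 earlier libraries and none below, and the median was 0.148. Mitochondrial ribosomal protein genes had a median of -0.0334 over 76 genes, with 1 called (Mrps6). Of 332 Zfp genes, most of which encode zinc finger proteins, 16 rose, none fell, 108 lay above all 4 earlier libraries and 29 below, and the median was 0.159. Under scaling by library totals alone all genes together shifted upward by 0.0586.

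The ribosome list was not equally high in both ZT10 libraries. As a summary per library, each member's log2 CPM was centred on its mean over the 6 daytime libraries and the members were averaged. This mean centred log2 level was 0.0184 in ZT10 replicate 1 and 0.443 in replicate 2, against -0.121 and -0.169 at ZT02 and -0.112 and -0.0591 at ZT06. All 4 earlier libraries lay below both ZT10 libraries, but replicate 1 was close to the upper end of them. At ZT14 the level was 0.435 and 0.375, at ZT18 -0.0674 and -0.0497, and at ZT22 0.0733 and 0.0537. Without ZT10 replicate 2 the median log2 difference of the list was 0.227, and without replicate 1 it was 0.599. Without both replicate 1 libraries of the earlier day the median was 0.343 with none called, so the direction did not turn on them. Of the 21 list members with a RefSeq promoter, 23.8% held an E-box, against 11.3% of all genes tested. The core of the cyclic AMP response element stood in 57.1%, against 33.6% of all. Heat shock elements were found in 4.76%, against 7.14%, and the glucocorticoid receptor hexamer in 19%, against 15.5%. No member held a D-box or a forkhead site. These shares carry no test. For the 74 cytosolic ribosomal protein genes the mean centred level was 0.0109 and 0.18 at ZT10. In the earlier day it was -0.12 and 0.00865 at ZT02 and -0.0822 and 0.00248 at ZT06. Their ZT10 replicate 1 was thus close to both replicate 2 libraries of the earlier day.

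**Figure D4:**
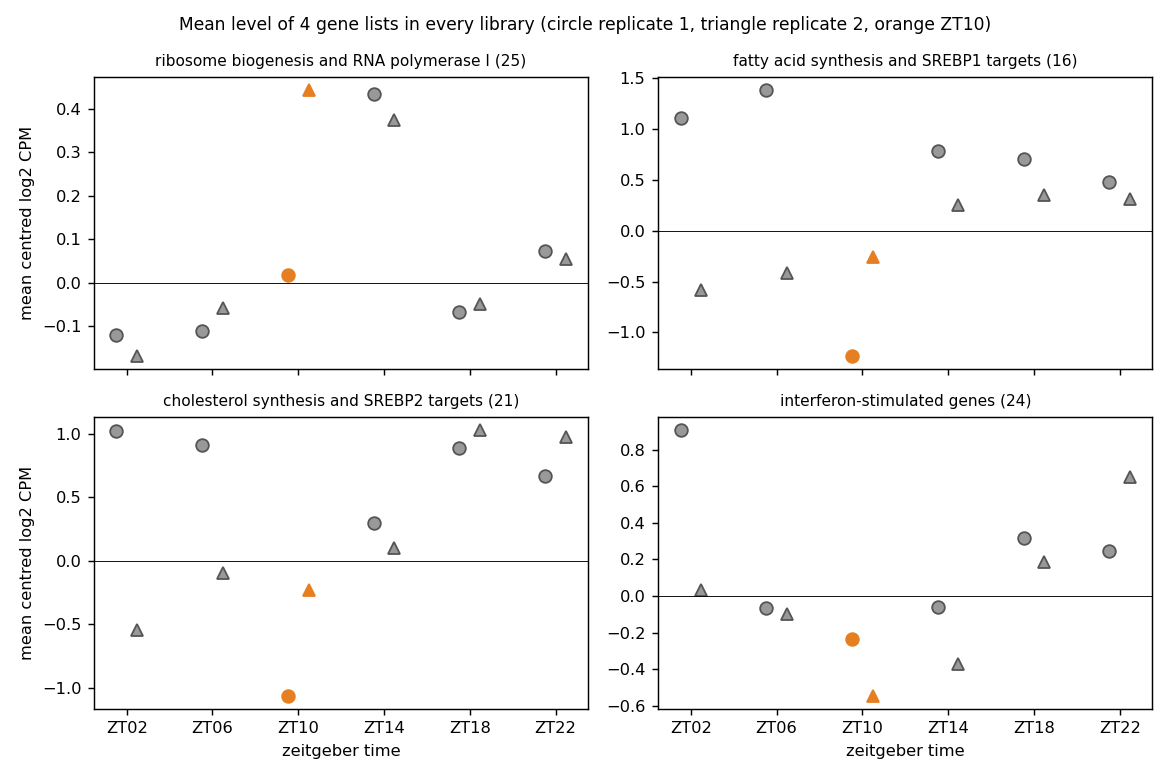
Mean centred log2 CPM of 4 gene lists in each library, by zeitgeber time (circles replicate 1, triangles replicate 2, orange ZT10, grey the other times). Ribosome biogenesis genes were at 0.0184 and 0.443 at ZT10, above the 4 earlier libraries, while both lipid synthesis lists were high in both replicate 1 libraries of ZT02 and ZT06 and low in both replicate 2 libraries.

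A few single regulators of transcription elongation and splicing that rose are given here; they were chosen after their values were seen, and no list of such genes was counted. Ccnt1, the cyclin subunit of the elongation factor P-TEFb, had 52.5 and 58.7 CPM at ZT10, against 32.3 and 30.8 CPM at ZT02 and 39.7 and 33.3 CPM at ZT06 (log2 difference 0.71 ± 0.10 SE, adjusted p = 0.016). Hexim1, an inhibitor of P-TEFb, had 44 and 38 CPM at ZT10, against 20.2 to 28.3 CPM in the earlier-day libraries (log2 difference 0.82 ± 0.15 SE, adjusted p = 0.0218). Activator and inhibitor of the same kinase thus rose together. The bromodomain gene Brd2 had 137 and 111 CPM at ZT10, against 71.2 to 98.5 CPM in the other 10 libraries (log2 difference 0.69 ± 0.11 SE, adjusted p = 0.016). Jmjd6 had 21.9 and 23.2 CPM at ZT10, against 13.2 to 15.7 CPM in the earlier-day libraries (log2 difference 0.66 ± 0.10 SE, adjusted p = 0.016), and the splicing factor gene Srsf6 123 and 111 CPM at ZT10, against 79.4 to 103 CPM in the other 10 libraries (log2 difference 0.42 ± 0.09 SE, adjusted p = 0.0376). Of the 5 temperature-responsive RNA-binding genes, Sfpq, a nuclear RNA-binding protein, was the 1 called, with 88.6 and 92.3 CPM at ZT10, against 56 to 66 CPM in the earlier-day libraries (log2 difference 0.54 ± 0.08 SE, adjusted p = 0.0163). Neither cold-inducible member passed the test. Rbm3 had 28.5 and 34.9 CPM at ZT10, against 19.7 to 28.2 CPM in the earlier-day libraries (adjusted p = 0.0531), and Cirbp 11.9 and 14.7 CPM at ZT10, against 17.2 to 27.9 CPM in the earlier-day libraries (adjusted p = 0.0892).

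Of 20 immediate-early genes tested, 2 rose (Jun and Jund), none fell and 6 lay above all 4 earlier libraries, with a median log2 difference of 0.54. Without ZT10 replicate 1 the median was 0.148 and 1 gene was called. The mean centred level of the list was 0.481 and -0.0646 at ZT10, against 0.0443 and 0.0682 at ZT02 and -0.329 and -0.2 at ZT06, so that ZT10 replicate 2 lay below both ZT02 libraries. Jund, another AP-1 subunit, had 69.8 and 71.3 CPM at ZT10, against 44.4 and 54.1 CPM at ZT02 and 49.2 and 51.6 CPM at ZT06 (log2 difference 0.50 ± 0.11 SE, adjusted p = 0.0375). Dusp1, a phosphatase that switches off MAP kinases, had 47.7 and 12.5 CPM at ZT10, against 11 and 13.2 CPM at ZT02 and 10.9 and 11 CPM at ZT06 and did not pass the test (adjusted p = 0.069). Only ZT10 replicate 1 stood apart there. Egr1 had 2.71 and 0.91 CPM at ZT10, against 28.9 and 6.32 CPM at ZT02 and 2.2 and 1.57 CPM at ZT06 (adjusted p = 0.159), with ZT02 replicate 1 the highest.

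Of 18 heat shock factor targets, 1 rose and none fell, with a median of 0.352. The list's mean centred level was 0.0905 and 0.41 at ZT10, against 0.00757 and -0.239 at ZT02 and 0.209 and -0.478 at ZT06. ZT10 replicate 1 thus lay below ZT06 replicate 1. Without both replicate 1 libraries of the earlier day the median was 0.619, and without both replicate 2 libraries it was 0.0985. The co-chaperone gene Dnajb1 had 21 and 26.3 CPM at ZT10, against 12.8 and 15 CPM at ZT02 and 17.4 and 14.1 CPM at ZT06 (log2 difference 0.67 ± 0.12 SE, adjusted p = 0.0232), with the higher ZT10 value in replicate 2. Hsph1 had 43.6 and 56.7 CPM at ZT10, against 29.4 and 20.8 CPM at ZT02 and 31.4 and 15.3 CPM at ZT06 and missed the threshold (adjusted p = 0.0523), with 141 and 144 CPM at ZT14. Of 22 endoplasmic reticulum chaperones and unfolded protein response genes, edgeR called none, DESeq2 called 1 higher, 3 had an unadjusted p under 0.05 and 2 lay above all 4 earlier libraries (median 0.282). Of 18 glucocorticoid-responsive genes, edgeR called none and DESeq2 1 higher, 7 had an unadjusted p under 0.05 and 1 lay above all 4 (median 0.348). Mean centred levels of that list were 0.52 and -0.168 at ZT10, against -0.0989 and -0.147 at ZT02 and -0.32 and 0.212 at ZT06, so its ZT10 libraries stood on opposite sides of 0. Without ZT10 replicate 1 its median was 0.0134, that of the chaperone list -0.137 and that of the acute phase list -0.27. Of 24 acute phase and STAT3 genes, 1 rose, the interleukin receptor gene Il1r1 with 56.4 and 61.7 CPM at ZT10, against 24.6 to 44 CPM in the earlier-day libraries (log2 difference 0.93 ± 0.20 SE, adjusted p = 0.0393), and the median was 0.0812. Of 22 SRF targets and actin genes edgeR called none and DESeq2 1 lower, and 3 had an unadjusted p under 0.05 (median 0.00599).

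Among the clock genes edgeR called Per3 alone. Of 20 tested, none rose and 1 fell, 2 lay above and 3 below all 4 earlier libraries, and the median log2 difference was 0.0267, or -0.0581 without ZT10 replicate 1. Per3, a period gene without a required role in the clock (chromosome 4, 151003652 to 151044665 on the minus strand), had 44.8 and 46.4 CPM at ZT10, against 75.5 and 69.2 CPM at ZT02 and 72.1 and 67.1 CPM at ZT06. Both ZT10 libraries were below every earlier one, the means were 45.6 ± 1.12 CPM at ZT10 and 71 ± 3.66 CPM in the earlier day (SD, n = 2 and 4), and the log2 difference was -0.64 ± 0.10 SE (adjusted p = 0.016). Without ZT10 replicate 1 the Per3 call was lost. Dbp, a target of the clock, was also below all 4 without passing the test, with 87.8 and 98.6 CPM at ZT10, against 108 and 133 CPM at ZT02 and 112 and 124 CPM at ZT06 (adjusted p = 0.116). Clock had 77 and 64 CPM at ZT10, against 52.3 and 50.2 CPM at ZT02 and 61.4 and 50.5 CPM at ZT06 (adjusted p = 0.0831). Arntl, which encodes BMAL1, had 12.6 and 6.72 CPM at ZT10, against 12.3 and 7.52 CPM at ZT02 and 10.6 and 9.7 CPM at ZT06 (adjusted p = 0.925), so its ZT10 libraries lay on opposite sides of the earlier range. Per1 had 53.5 and 24.8 CPM at ZT10, against 28.2 and 29.7 CPM at ZT02 and 21.8 and 24.1 CPM at ZT06 (adjusted p = 0.262), high in ZT10 replicate 1 alone. For Nr1d1, the repressor REV-ERB alpha, the log2 difference was -0.32 and for Per2 it was 0.14, neither of which passed.

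Among the 15 largest falls, 3 act in fuel use or cell survival. Pdk4, the kinase that shuts off pyruvate dehydrogenase and is known to rise in fasting (chromosome 6, 5483351 to 5496309 on the minus strand), had 4.99 and 2.68 CPM at ZT10, against 14.8 and 9.28 CPM at ZT02 and 18.8 and 13 CPM at ZT06. Both ZT10 libraries were below all 10 others, with a log2 difference of -1.85 ± 0.31 SE (adjusted p = 0.0193). Without ZT02 replicate 1 or ZT10 replicate 2 the call was lost. Bbc3, the pro-apoptotic protein PUMA, had 2.71 and 2.19 CPM at ZT10, against 11.4 and 7.6 CPM at ZT02 and 6.54 and 8.69 CPM at ZT06 (log2 difference -1.80 ± 0.31 SE, adjusted p = 0.0193). Pim1, a survival kinase induced by cytokines (chromosome 17, 29490753 to 29496112 on the plus strand), had 8.78 and 9.57 CPM at ZT10, against 27 and 24.4 CPM at ZT02 and 19.8 and 19.7 CPM at ZT06. Its means were 9.17 ± 0.56 CPM at ZT10 and 22.7 ± 3.6 CPM in the earlier day (SD, n = 2 and 4), and the log2 difference was -1.30 ± 0.14 SE (adjusted p = 0.00885). Of all the falls Pim1 alone was kept in each of the 24 alternatives, with adjusted p from 2.26e-11 to 0.0453. Pim1 had 9.39 and 12.8 CPM at ZT14, 16.2 and 17.3 CPM at ZT18 and 19.4 and 15.6 CPM at ZT22.

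Smpd3, a neutral sphingomyelinase, had the largest fall among them, with 1.88 and 2.71 CPM at ZT10, against 10.6 and 5.84 CPM at ZT02 and 11.8 and 11.6 CPM at ZT06 (log2 difference -2.09 ± 0.49 SE, adjusted p = 0.0475). Its counts were nearly identical to those of an overlapping annotation, AC134615.1, and cannot be told apart from it. Spns2, a sphingosine phosphate exporter, had 10.6 and 9.8 CPM at ZT10, against 27 and 20.7 CPM at ZT02 and 27.4 and 20.9 CPM at ZT06 (log2 difference -1.23 ± 0.25 SE, adjusted p = 0.0324). Slc23a1, the vitamin C transporter, had 7.45 and 17.4 CPM at ZT10, against 47.1 and 27.2 CPM at ZT02 and 56.7 and 27.7 CPM at ZT06 (log2 difference -1.67 ± 0.37 SE, adjusted p = 0.0411). In ZT10 replicate 1 its level was less than that of replicate 2, and the call held in 3 of 12 leave-one-out fits. Aldh1b1, a mitochondrial aldehyde dehydrogenase, had 13.7 and 25.5 CPM at ZT10, against 81.5 and 35.7 CPM at ZT02 and 71.3 and 51.6 CPM at ZT06 (adjusted p = 0.0393). S100a10, the annexin partner, had 20.8 and 32.4 CPM at ZT10, against 49.99 to 104 CPM in the other 10 libraries (log2 difference -1.44 ± 0.28 SE, adjusted p = 0.0268).

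The other large falls included drug-metabolising enzymes and a muscle gene. Sult1b1, a sulfotransferase, had 9.35 and 12.4 CPM at ZT10, against 23.5 to 31.9 CPM in the earlier-day libraries (log2 difference -1.30 ± 0.23 SE, adjusted p = 0.0219). Fmo4, a flavin monooxygenase, had 2.76 and 4.11 CPM at ZT10, against 5.89 to 10.2 CPM in the earlier-day libraries (log2 difference -1.24 ± 0.26 SE, adjusted p = 0.0352). Neb, known as the giant actin-binding protein of skeletal muscle, had 33.6 and 39.2 CPM at ZT10, against 70.1 to 102 CPM in the earlier-day libraries (log2 difference -1.24 ± 0.23 SE, adjusted p = 0.0243). Rwdd3, an enhancer of SUMO conjugation, had 2.61 and 3.55 CPM at ZT10, against 6.09 to 8.24 CPM in the earlier-day libraries (log2 difference -1.22 ± 0.21 SE, adjusted p = 0.0194). In 6 of the 15 falls the ZT10 libraries differed by more than 1.5 times, and replicate 1 was the lower one in 10.

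Some genes of innate antiviral sensing fell at ZT10. Of 24 interferon-stimulated genes 2 fell and none rose, 10 lay below all 4 earlier libraries and none above, and 23 of the 24 differences were negative with a median of -0.508. DESeq2 called 9 lower. Of edgeR's 2 calls none was left after removing either earlier-day replicate 1 library or any library of ZT10 or ZT18, while 6 genes were called without ZT02 replicate 2. Oasl1, a regulator of the interferon response, had 4.34 and 2.73 CPM at ZT10, against 11.1 and 6.01 CPM at ZT02 and 10.4 and 7.9 CPM at ZT06 (log2 difference -1.33 ± 0.28 SE, adjusted p = 0.0343). Gbp10, a guanylate-binding protein, had 5.54 and 2.1 CPM at ZT10, against 28.7 and 16.3 CPM at ZT02 and 8.96 and 7 CPM at ZT06 (log2 difference -1.82 ± 0.42 SE, adjusted p = 0.0475). It was already low at ZT06, and its high earlier values were those of ZT02. Isg15, the ubiquitin-like interferon product, had 1.35 and 0.98 CPM at ZT10, against 5.35 and 2.28 CPM at ZT02 and 1.95 and 1.996 CPM at ZT06 (adjusted p = 0.0746), and Ifit3 5.27 and 5.27 CPM at ZT10, against 17.8 and 8.03 CPM at ZT02 and 7.12 and 8.8 CPM at ZT06 (adjusted p = 0.0782). ZT02 replicate 1 was the highest of the 6 libraries in each of these 4 genes.

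The 3 cytosolic RNA sensors of the RIG-I family fell together; these genes were chosen after their values were seen. Ifih1, the sensor MDA5, had 26.3 and 28.5 CPM at ZT10, against 64.4 and 46.7 CPM at ZT02 and 47.4 and 42.8 CPM at ZT06 (log2 difference -0.87 ± 0.14 SE, adjusted p = 0.0173). Ddx58, the sensor RIG-I, had 21 and 20.3 CPM at ZT10, against 38.2 and 29.1 CPM at ZT02 and 31.6 and 27.9 CPM at ZT06 (log2 difference -0.62 ± 0.12 SE, adjusted p = 0.0259). Dhx58, their regulator LGP2, had 5.34 and 4.64 CPM at ZT10, against 12.8 and 8.94 CPM at ZT02 and 8.09 and 7.84 CPM at ZT06 (log2 difference -0.90 ± 0.16 SE, adjusted p = 0.0219). At ZT10 all 3 were below each of the other 10 libraries. Ddx60, a helicase linked to these sensors, had 4.64 and 5.04 CPM at ZT10, against 8.04 to 14.6 CPM in the earlier-day libraries (log2 difference -1.19 ± 0.23 SE, adjusted p = 0.0261). Trim14, an adaptor of antiviral signalling, had 9.05 and 7.35 CPM at ZT10, against 13.4 to 22.2 CPM in the other 10 libraries (log2 difference -0.95 ± 0.14 SE, adjusted p = 0.016) and was still called without each library in turn. Parp10, Parp12 and Xaf1 fell as well, with log2 differences of -0.51, -0.64 and -1.08. Their calls held in 0, 2 and 9 of the 12 leave-one-out fits. Those of Ifih1, Ddx58 and Dhx58 held in 11, 6 and 8.

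ZT02 replicate 1 held the highest level of the interferon list. The mean centred log2 level of the list was -0.233 and -0.543 at ZT10, against 0.906 and 0.0324 at ZT02 and -0.0658 and -0.0965 at ZT06. Without both replicate 1 libraries of the earlier day its median was -0.377 and none of its genes was called, and without both replicate 2 libraries it was -0.683 with 6 lower. ZT02 replicate 1 was also the highest of the 6 libraries in the mean centred levels of erythroid markers (1.81, the others at most -0.128), Kupffer cell markers (0.407, the others at most 0.0983) and lymphocyte markers (0.401, the others at most 0.102). The part of these cells in the result was not tested. Among families chosen after the calls were seen, all 11 Gbp genes had negative differences with 1 called, 3 of 12 Parp genes fell and none rose, and of 51 Ddx and Dhx genes 4 rose and 4 fell.

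Some genes of amino acid catabolism fell. Of 24 genes of amino acid catabolism and the urea cycle, 1 fell, none rose and 6 lay below all 4 earlier libraries, with a median log2 difference of -0.169. The list's mean centred log2 level was 0.0266 and -0.27 at ZT10, against 0.125 and -0.0466 at ZT02 and 0.258 and -0.0928 at ZT06. ZT10 replicate 1 thus lay above both replicate 2 libraries of the earlier day. Without ZT10 replicate 1 the median was -0.316. Gpt, alanine aminotransferase, had 219 and 226 CPM at ZT10, against 339 and 303 CPM at ZT02 and 341 and 302 CPM at ZT06 (log2 difference -0.53 ± 0.11 SE, adjusted p = 0.0383). Genes outside the list, chosen after their values were seen, were lower by similar amounts. Slc38a3, the hepatic glutamine transporter SNAT3, had 731 and 836 CPM at ZT10, against 1373 and 1279.9 CPM at ZT02 and 1441 and 1268 CPM at ZT06 (log2 difference -0.77 ± 0.11 SE, adjusted p = 0.016). Aldh4a1, a mitochondrial enzyme of proline breakdown, had 316 and 333 CPM at ZT10, against 465 and 502 CPM at ZT02 and 495 and 445 CPM at ZT06 (log2 difference -0.55 ± 0.10 SE, adjusted p = 0.0199). Spread between replicates was small in both. Agxt2 had 68 and 90.1 CPM at ZT10, against 124 to 148 CPM in the earlier-day libraries (log2 difference -0.75 ± 0.14 SE, adjusted p = 0.0251), and Abat, the GABA transaminase, 362 and 332 CPM at ZT10, against 475 to 542 CPM in the earlier-day libraries (log2 difference -0.57 ± 0.12 SE, adjusted p = 0.0391). Ftcd, of histidine breakdown, and Sardh, of sarcosine breakdown, both had a log2 difference of -0.49. The Sardh call was lost in each of the 12 leave-one-out fits.

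Of 15 genes for NAD synthesis and sirtuins, 2 fell, none rose and 7 lay below all 4 earlier libraries (median -0.134). DESeq2 called 7 lower. The median was -0.323 without ZT10 replicate 2 and -0.286 without replicate 1, and edgeR called none when any replicate 1 library of the 3 daytimes, or any library of ZT18 or ZT22, was left out. Qprt, which makes nicotinate mononucleotide from quinolinate, had 57.9 and 84.6 CPM at ZT10, against 115 and 119 CPM at ZT02 and 131 and 102 CPM at ZT06 (log2 difference -0.72 ± 0.15 SE, adjusted p = 0.0363). Ido2, a tryptophan-cleaving dioxygenase, had 26.1 and 19.9 CPM at ZT10, against 31.9 to 45 CPM in the earlier-day libraries (log2 difference -0.75 ± 0.17 SE, adjusted p = 0.0461). Of 20 genes of the ATF4 and amino acid response, 2 fell and none rose (median 0.0193). Shmt2, the mitochondrial serine hydroxymethyltransferase, had 113 and 112 CPM at ZT10, against 163 and 155 CPM at ZT02 and 173 and 151 CPM at ZT06 (log2 difference -0.52 ± 0.09 SE, adjusted p = 0.0232), and the pseudokinase gene Trib3 had 4.01 and 3.71 CPM at ZT10, against 8.48 and 8.51 CPM at ZT02 and 4.77 and 6.04 CPM at ZT06 (log2 difference -0.81 ± 0.16 SE, adjusted p = 0.0312).

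Some peroxisomal genes, chosen after their values were seen, fell. Pex11c, of the family that divides peroxisomes, had 26.6 and 21.9 CPM at ZT10, against 35.9 to 45.8 CPM in the earlier-day libraries (log2 difference -0.71 ± 0.13 SE, adjusted p = 0.0208). Lonp2, the peroxisomal protease, had 217 and 230.0 CPM at ZT10, against 306 to 381 CPM in the earlier-day libraries (log2 difference -0.64 ± 0.13 SE, adjusted p = 0.0335). Pex16, a membrane biogenesis factor, and Pxmp2, a membrane channel, had log2 differences of -0.50 and -0.56. Of all 16 Pex genes tested 2 fell, none rose, and the median was -0.117.

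Fatty acid oxidation and ketone body synthesis gave 1 call each. Of 31 genes of fatty acid oxidation and PPARalpha targets, 1 fell (Pdk4), none rose, and the median was -0.0375. The list's mean centred log2 level was -0.422 and 0.148 at ZT10, against 0.0872 and 0.0842 at ZT02 and -0.114 and 0.216 at ZT06. Its median was 0.118 without ZT10 replicate 1, and -0.259 with 6 genes called lower without ZT10 replicate 2. Of 6 genes for ketone body synthesis and export, 1 rose, Slc16a6, known as an exporter of ketone bodies in zebrafish, with 3.76 and 4.99 CPM at ZT10, against 1.96 to 2.92 CPM in the earlier-day libraries (log2 difference 0.90 ± 0.19 SE, adjusted p = 0.0363), and the median was -0.0931. Of 14 gluconeogenesis genes neither edgeR nor DESeq2 called any, and 2 had an unadjusted p under 0.05 (median -0.00507). Pck1, the entry enzyme of gluconeogenesis, had 5052 and 1845 CPM at ZT10, against 2108 and 2797 CPM at ZT02 and 1791 and 1764 CPM at ZT06 (adjusted p = 0.315), with ZT10 replicate 1 above and replicate 2 below the earlier mean.

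Glucose handling genes gave 1 call in 17, that of Pfkfb3, with a median of -0.297. The median was -0.0362 with no call without both replicate 1 libraries of the earlier day, and -0.491 with 2 genes lower without both replicate 2 libraries. Pfkfb2, another enzyme of fructose bisphosphate control, is no member of the list, was chosen after its values were seen and had 64.5 and 47.1 CPM at ZT10, against 33 to 39.9 CPM in the earlier-day libraries (log2 difference 0.68 ± 0.13 SE, adjusted p = 0.0283). In 4 further lists edgeR called no gene. Of 15 glycogen enzymes and targeting subunits, 4 lay below all 4 earlier libraries, 5 had an unadjusted p under 0.05 and DESeq2 called 2 lower (median -0.269, or -0.0723 without ZT10 replicate 1 and -0.117 without ZT06 replicate 1). Of 16 insulin signalling genes and FOXO targets, 5 lay below all 4, 5 had an unadjusted p under 0.05 and DESeq2 called 2 lower (median -0.125, or 0.00659 without ZT10 replicate 2 and -0.251 without ZT10 replicate 1). Of 18 autophagy and lysosome genes, 5 lay above all 4, 4 had an unadjusted p under 0.05, near the share over all genes, and DESeq2 called 1 higher (median 0.0237). Of 15 bile acid genes, 3 had an unadjusted p under 0.05 and DESeq2 called 1 lower (median -0.149, or -0.0359 without ZT10 replicate 1 and -0.239 without ZT10 replicate 2).

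Lipid synthesis gave the lowest medians of the 30 lists but no call by edgeR. All 16 fatty acid synthesis genes and SREBP1 targets had negative differences (median log2 -1.22), and 4 lay below all 4 earlier libraries. At an unadjusted p under 0.05 stood 9 of them, and DESeq2 called 3 lower. All 21 cholesterol synthesis genes and SREBP2 targets were negative as well (median -1.19), again with 4 below all 4 earlier libraries, 14 at an unadjusted p under 0.05 and 3 called lower by DESeq2. Fasn, fatty acid synthase, had 180.5 and 396 CPM at ZT10, against 1524 and 268 CPM at ZT02 and 1898 and 274 CPM at ZT06 (adjusted p = 0.248). The replicate 1 libraries of ZT02 and ZT06 were far above their replicate 2 partners, which overlapped ZT10. Thrsp, a lipogenic factor induced by carbohydrate, had 39.6 and 108 CPM at ZT10, against 779 and 106 CPM at ZT02 and 999 and 86.1 CPM at ZT06 (adjusted p = 0.14). Dhcr7, the last enzyme of cholesterol synthesis, had 8.2 and 16.4 CPM at ZT10, against 56.3 and 21.1 CPM at ZT02 and 58.4 and 24.3 CPM at ZT06 (adjusted p = 0.0654). Srebf1 itself had 171 and 202 CPM at ZT10, against 358 and 334 CPM at ZT02 and 519.6 and 231 CPM at ZT06 (adjusted p = 0.14), and Acss2, which makes acetyl-CoA from acetate, 44.8 and 98.8 CPM at ZT10, against 371 and 109.7 CPM at ZT02 and 651 and 139.9 CPM at ZT06 (adjusted p = 0.0869). In these last 3 genes both ZT10 libraries were below all 4 earlier ones.

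The lipid lists depended on which earlier libraries were used. The mean centred level of the fatty acid list was -1.23 and -0.254 at ZT10, against 1.11 and -0.585 at ZT02 and 1.38 and -0.419 at ZT06. That of the cholesterol list was -1.06 and -0.233 at ZT10, against 1.02 and -0.541 at ZT02 and 0.909 and -0.0964 at ZT06. Replicate 2 of ZT10 was therefore above replicate 2 of ZT02 in both lists. Without both replicate 1 libraries of the earlier day the medians were -0.204 for fatty acid and -0.264 for cholesterol synthesis, with no call. Without both replicate 2 libraries they were -1.94 and -1.61, and 10 and 16 genes were called lower.

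**Figure D5:**
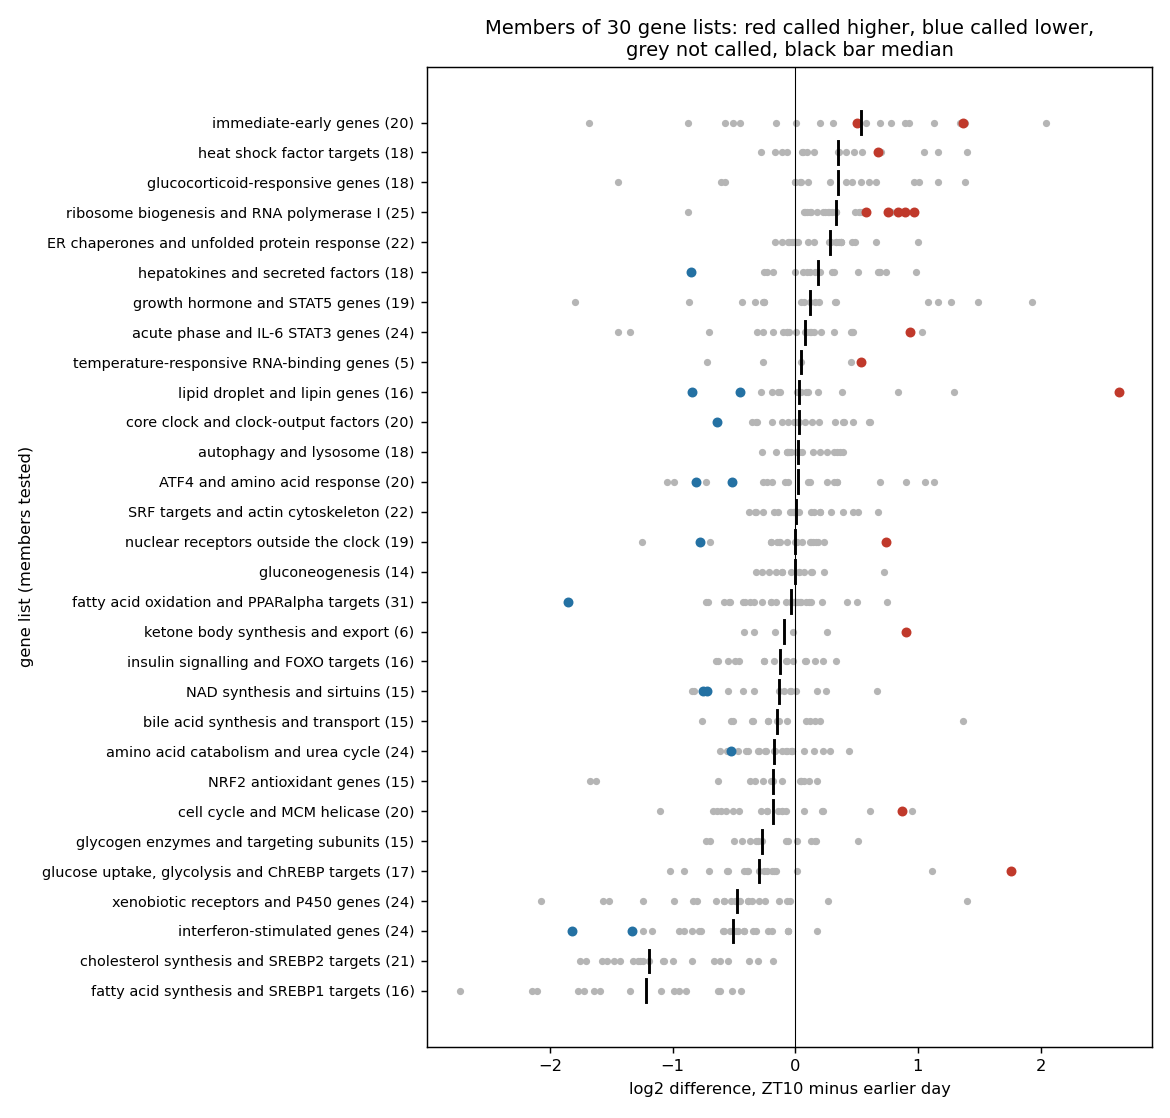
Log2 difference of ZT10 minus the earlier day for the tested members of 30 gene lists (number tested in parentheses), sorted by median (black bar), with called rises in red, called falls in blue and genes not called in grey. The immediate-early list stands at the top with a median of 0.54 (0.148 without ZT10 replicate 1, when the ribosome list has 0.599), and the fatty acid and cholesterol synthesis lists stand at the bottom with medians of -1.22 and -1.19 and no coloured point.

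The other lists held few calls. Among 24 xenobiotic receptors and P450 genes edgeR called none, 2 lay above and 12 below all 4 earlier libraries, and the median was -0.474. An unadjusted p under 0.05 was reached by 14 of them, and DESeq2 called 1 higher and 5 lower. The mean centred level of the list was -0.619 and -0.106 at ZT10, against 0.418 and -0.067 at ZT02 and 0.369 and 0.00576 at ZT06, so the earlier replicate 1 libraries were the high ones here too. Without both of them the median was -0.337 with no call, and without both replicate 2 libraries it was -0.663 with 5 lower. Alas1, the rate-limiting enzyme of haem synthesis, had 503 and 1356 CPM at ZT10, against 358 and 462 CPM at ZT02 and 230.1 and 375 CPM at ZT06 (adjusted p = 0.0568). Cyp2b10, a target of the xenobiotic receptor CAR, had 2.93 and 9.78 CPM at ZT10, against 27.4 and 10.1 CPM at ZT02 and 58.5 and 17.7 CPM at ZT06 (adjusted p = 0.123). These members of 1 list lay on opposite sides of the earlier day. Of 16 lipid droplet and lipin genes 1 rose (Gm6484) and 2 fell (median 0.0306), namely Cideb with 82.5 and 76 CPM at ZT10, against 106 to 109.5 CPM in the earlier-day libraries (adjusted p = 0.0261), and Lpin3 with 3.18 and 3.69 CPM at ZT10, against 5.24 to 7.01 CPM in the earlier-day libraries (adjusted p = 0.0359). The median of this list was -0.134 without both replicate 1 libraries of the earlier day and 0.136 without both replicate 2 libraries. Of 18 hepatokines 1 fell, Lect2, with 39.2 and 34.4 CPM at ZT10, against 47.6 to 78.3 CPM in the earlier-day libraries (adjusted p = 0.0375, median 0.183). Of 19 growth hormone and STAT5 genes edgeR called none, DESeq2 2 higher and 1 lower, and 7 had an unadjusted p under 0.05 (median 0.123). Of 20 cell cycle genes 1 rose, Ccne1, the cyclin of entry into DNA synthesis, with 4.89 and 3.97 CPM at ZT10, against 2.14 to 2.56 CPM in the earlier-day libraries (adjusted p = 0.0383, median -0.182). Of 15 NRF2 antioxidant genes edgeR called none and DESeq2 1 lower, and 3 had an unadjusted p under 0.05 (median -0.182). Both of these last medians changed sign without both replicate 1 libraries of the earlier day, to 0.0941 for the cell cycle and 0.0335 for the NRF2 list. Without both replicate 2 libraries they were -0.531 with 3 lower and -0.177 with 4 lower. Without ZT10 replicate 1 the cell cycle median was 0.00631. Several lists given with calls of edgeR alone had other counts with DESeq2. DESeq2 called 4 immediate-early genes and 2 heat shock targets higher, and 4 amino acid catabolism genes lower. Of the temperature-responsive genes it called 2 higher and 1 lower. Of the glucose genes it called 1 higher and 2 lower, and of the clock genes 1 higher and 2 lower. In the fit of the 6 daytime libraries Jun was the 1 member of any of the 30 lists that was called.

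Set against each of the earlier times alone, ZT10 differed from ZT06 in 11 genes, 0.0642% of those tested, and from ZT02 in 151 genes (91 higher, 60 lower), 0.881%. An unadjusted p under 0.05 was reached by 2851 genes for ZT10 against ZT06. The 11 genes were Jun, Ttpal, Skil, Capn11, Mrps6, Slc5a3 and Gm16309, which rose, and Pim1, Cpsf4l, Adck3 and Gm11266, which fell. Those not described above were named after their values were seen. Adck3, which acts in coenzyme Q synthesis, had 239.9 and 274 CPM at ZT10, against 468 and 396 CPM at ZT02 and 540.2 and 454 CPM at ZT06. Its level was similarly low at ZT14, with 274 and 243 CPM. Skil, which encodes the SMAD repressor SnoN, had 52.5 and 40.3 CPM at ZT10, against 23 to 39 CPM in the other 10 libraries. These contrasts share the ZT10 libraries. DESeq2 called 632 genes against ZT06 and 758 against ZT02, and in the fit of the 6 daytime libraries edgeR called 0 in both, with 2098 genes against ZT06 and 2383 against ZT02 at an unadjusted p under 0.05. In 196 of the 274 rises and 106 of the 226 falls the ZT06 mean lay between those of ZT02 and ZT10. Since no call overlapped, the ZT06 mean could otherwise lie only beyond that of ZT02. The share over all genes was not counted, so these counts do not show a gradual change. Both ZT14 libraries also lay above all 4 earlier-day libraries in 226 of the 274 rises, and in 2999 of all 17142 genes tested. They lay below all 4 in 151 of the 226 falls, for which the share over all genes was not counted. The rises and falls were called against these same 4 libraries, so neither count is an independent result.

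Against the mean of the other 5 times, 254 genes were higher at ZT10, 1.48% of those tested, and 197 lower, 1.15%. The number of these calls, 451 with all libraries, moved when single libraries were left out, and the cause was not tested. Their number was 1 without ZT18 replicate 2, 3 without ZT18 replicate 1 or ZT10 replicate 1, 15 without ZT22 replicate 1 and 70 without ZT22 replicate 2. Leaving out ZT02 replicate 1 gave 152, ZT06 replicate 1 gave 220 and ZT10 replicate 2 gave 169, while ZT14 replicate 1 gave 196 and ZT14 replicate 2 gave 796. ZT10 was above all 10 other libraries in 902 genes, 5.26%, and below all 10 in 836, 4.88%. Among genes apart from the rest of the cycle, Socs2, a growth hormone-induced inhibitor of cytokine signalling, was high with 41.1 and 58.2 CPM at ZT10, against 2.14 to 28.1 CPM in the other 10 libraries. Rasa2, a GTPase-activating protein of Ras, had 6.84 and 7.61 CPM at ZT10, against 1.99 to 4.5 CPM in the other 10 libraries, and the phospholipase gene Pla2g12a 9.83 and 6.44 CPM at ZT10, against 2.71 to 5.9 CPM in the other 10 libraries. Lowest beside the rest were Oasl1 and S100a10, given above, and Serpina12, the adipokine vaspin, with 4.06 and 4.76 CPM at ZT10, against 5.38 to 37.1 CPM in the other 10 libraries. Socs2, Rasa2, Pla2g12a and Serpina12 did not pass against the earlier day alone (adjusted p = 0.154, 0.0582, 0.0785 and 0.0736).

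Capn11, a calpain known mainly from testis, gave the largest rise of any gene called and was named after its values were seen. It had 98 and 195 counts at ZT10, against 10 and 4 at ZT02 and 5 and 3 at ZT06. From ZT14 to ZT22 it had 1, 1, 4, 16, 3 and 2 counts. The ZT10 libraries, at 2.46 and 4.55 CPM, held the 2 highest counts of the 12, and the next was the 16 counts of ZT18 replicate 2. The log2 difference was 4.65 ± 0.45 SE (adjusted p = 0.00885). Its call held without each library in turn and in the fit of the 6 daytime libraries. Its level was low, and the gene lies on chromosome 17, 45630204 to 45659325 on the minus strand.

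Further single genes kept their call in at least 11 of the 12 leave-one-out fits. Amd1, the enzyme that commits S-adenosylmethionine to polyamines, had 38 and 49.8 CPM at ZT10, against 20.7 and 18.7 CPM at ZT02 and 30.8 and 21.4 CPM at ZT06 (log2 difference 0.95 ± 0.14 SE, adjusted p = 0.016). At ZT14 Amd1 was higher still, with 55.4 and 53.7 CPM. Steap3, an endosomal ferrireductase, had 10.8 and 10.5 CPM at ZT10, against 12.4 to 21.1 CPM in the other 10 libraries (log2 difference -0.78 ± 0.10 SE, adjusted p = 0.0123). Bco2, which cleaves carotenoids, had 13.9 and 13.7 CPM at ZT10, against 22 to 23.9 CPM in the earlier-day libraries (log2 difference -0.72 ± 0.10 SE, adjusted p = 0.0145). Hsd3b3, a steroid dehydrogenase, had 98 and 108 CPM at ZT10, against 117 to 199 CPM in the other 10 libraries (log2 difference -0.76 ± 0.10 SE, adjusted p = 0.0145). All 4 were chosen after their values were seen. Prnp, the prion protein gene, was chosen likewise and fell by 0.50 on the log2 scale, but its counts were almost the same as those of the neighbouring Prnd and are uncertain between them.

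Transcript structure of the called genes is given as a description, with no test. The annotation gave a transcript for 98.2% of the rises, 99.1% of the falls and 98% of all genes. The longest transcript had a median of 3743 bases and 5 exons among the rises, 2990 bases and 8.5 exons among the falls, and 2914 bases and 6 exons among all. Genes with 2 or fewer exons made up 23% of the rises, 10.7% of the falls and 25.6% of all. GC content had a median of 48.1% in the rises, 51.5% in the falls and 49.5% in all. These are descriptions of called genes, for which longer and more abundant genes give more counts.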

How the data were processed

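Raw exon counts per gene, deposited by the authors, were used for 12 liver libraries, 2 at each of 6 zeitgeber times, all from Cry1/2 DKO mice. The submitters' processing notes name STAR 2.4.0i and the build mm10; which program counted the reads, with which strand setting and annotation, is not given in the sources used here. No column belonged to a sample of another series and no row lacked a gene ID. Symbols come from the deposited table. Coordinates and transcripts come from the annotation for 22054 of 22618 gene IDs, and promoter windows from RefSeq (GRCm38.p6), with bases counted from 1.

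Genes with at least 10 counts in enough libraries (edgeR's filterByExpr by time, with a total of at least 15) were kept. The 17142 kept genes were fitted with edgeR 4.0.16 in R 4.3.3 (limma 3.58.1), using TMM scaling, 6 time groups and the quasi-likelihood test. Contrasts were ZT10 minus the mean of ZT02 and ZT06, minus ZT06, minus ZT02, and minus the mean of the other 5 times. A call means a Benjamini-Hochberg adjusted p under 0.05 over all genes tested. CPM use TMM library sizes, and log2 CPM a prior count of 2. The SE of a log2 difference is its size divided by the square root of the F statistic. The script was tested on simulated counts with known changes.

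Genes were named by rule. From calls with at least 5 CPM over the 6 daytime libraries and no overlap, the 15 largest rises and falls were taken, leaving out clone or model names and markers of other cell types. To these were added the 4 genes per direction standing furthest from the other 5 times, the clock genes, and up to 3 called members of each gene list or its 2 most abundant members. Some genes that the rule names are left out of the text. All other genes in the text, among them uncalled list members such as Dusp1, Egr1, Hsph1, Thrsp, Dhcr7, Srebf1, Acss2, Isg15, Ifit3, Rbm3, Cirbp, Alas1 and Cyp2b10, were chosen after their values were seen. The members and lists were chosen with earlier results of these data known. Alternatives covered DESeq2 1.42.0, other scalings and filters, other fits and left-out libraries.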

Additional observations from a re-analysis of the deposited data

Results flagged for a closer look

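Within the 4 earlier-day libraries, 6 of 140 series of values had 1 library far from the other 3 by Dixon's ratio, the gap to the nearest value over the whole range, above its 95% critical value for 4 samples. Chance gives this in about 1 group of 20. Ccrn4l had a ratio of 0.88, with ZT06 replicate 1 at 21.3 CPM and the others between 7.97 and 8.97 CPM. Pfkfb3 had a ratio of 0.849, with ZT02 replicate 1 at 8.96 CPM and the others between 6.97 and 7.24 CPM. Both are rises at ZT10 in which these earlier libraries were the closest to ZT10. Smpd3 had a ratio of 0.847, with ZT02 replicate 2 low at 5.84 CPM and the others between 10.6 and 11.8 CPM.

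Among gene lists, by mean centred log2 level, the gluconeogenesis list had a ratio of 0.868, with ZT06 replicate 1 at 0.0929 and the others between -0.0264 and -0.0107. The interferon-stimulated list had a ratio of 0.871, with ZT02 replicate 1 at 0.906 and the others between -0.0965 and 0.0324. Erythroid markers had a ratio of 0.848, with ZT02 replicate 1 at 1.81 and the others between -0.559 and -0.198. The same library thus stood apart in both the interferon list and the erythroid markers, and whether the 2 are related was not tested.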

How the results depend on the processing

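Counts of called genes moved with the tool and the libraries. DESeq2 called 1247 genes for ZT10 against the earlier day (45.6% higher, against 54.8% by edgeR), 632 against ZT06 (38.6%, against 63.6%), 758 against ZT02 (47.1%, against 60.3%) and 1215 against the other 5 times. Scaling by library totals called 766, 34, 319 and 601 genes in the same 4 comparisons (74.2%, 67.6%, 75.5% and 66.9% higher, the last against 56.3%), and 66.5% of the genes without overlap were then higher, against 53.9%. With no filter on low counts 18 genes were called against ZT06. The 6 daytime libraries alone gave 5, 0 and 0 calls against the earlier day, ZT06 and ZT02, and 37 with ZT02 and ZT06 as 1 group. Over the fits that left out libraries, the counts ran from 28 to 698 against the earlier day, 0 to 274 against ZT06, 0 to 249 against ZT02 and 1 to 845 against the other 5 times, and the count without overlap from 5097 to 9985, since fewer libraries overlap less often. The fits without both replicate 1, or both replicate 2, libraries of the earlier day were chosen after seeing the data. With the replicate block the counts were 416, 17, 128 and 363, and 376 of the 500 genes stayed called. Replicate numbers were not taken as pairs, since the correlation of same-numbered deviations over 9876 genes was 0.501 for ZT02 and ZT06 but -0.0323 for ZT02 and ZT10 and 0.162 for ZT06 and ZT10. DESeq2 and the block give no value for the count without overlap, and the 6-library fit none for the other 5 times. The cause of these shifts was not tested. Of 51 named genes called, 2 kept the call in all 24 alternatives and none changed sign where called.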
